A study of Mus musculus with 12 samples.

Results

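The genes described here are Cml3 and 4 related N-acetyltransferase genes, Cml1, Cml2, Cml5 and Nat8l, in ribosome-bound mRNA of mouse CA1 pyramidal neurons with and without Fmr1. They are 5 of the 24079 genes of the count table, and all 5 had at least 15 reads summed over the 12 libraries, as did 17823 genes in all. Cml3 was chosen from its measured difference between the genotypes in these same libraries, so its difference is given as a description without a test. The other 4 genes were taken by family name. Cml1, Cml2, Cml3 and Cml5 (camello-like genes) are named Nat8f1, Nat8f2, Nat8f3 and Nat8f5 in RefSeq, and rows were matched to RefSeq by Entrez identifier. RefSeq also places Nat8, Gm11128 (Nat8f6), 1700019G17Rik (Nat8f4) and Gm4477 (Nat8f7) in this family, and these are shown beside the members.

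The 6 WT libraries came from Wfs1-CreERT2:RiboTag mice and the 6 Fmr1-/y libraries (labelled "Frm1 knockout") from Wfs1-CreERT2:RiboTag mice that also lacked Fmr1. All were males aged 2 to 6 months that received tamoxifen at 100 mg/kg on 3 days and were used 1 week later, and each library was a pool of 4 to 6 mice. Tamoxifen activates the Cre recombinase, driven by a Wfs1 transgene, which places a hemagglutinin (HA) tag on the ribosomal protein Rpl22, and tagged ribosomes were then pulled down from whole hippocampus. Any hippocampal cell with Wfs1-Cre activity therefore contributes, and RNA of untagged cells can be carried along.

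NAT8-type enzymes sit in the membrane of the endoplasmic reticulum and transfer the acetyl group of acetyl-CoA to an amino group. NAT8 itself acetylates cysteine S-conjugates, the last step by which glutathione conjugates become mercapturic acids, and it is also known to acetylate lysines of proteins passing through the endoplasmic reticulum. NAT8L makes N-acetylaspartate (NAA) from aspartate in neurons, which is used for lipid synthesis in myelin and for the dipeptide N-acetylaspartylglutamate (NAAG). Expression of NAT8 genes is best known from kidney and liver, and NAA is among the most abundant metabolites of the brain.

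The camello-like genes lie side by side in the mouse genome. In RefSeq on GRCm38, the build also called mm10, Cml3 spans chr6:85760631-85765767, Cml5 chr6:85817218-85820972, Cml2 chr6:85865422-85869137 and Cml1 chr6:85910154-85915914. Gm11128 (chr6:85808044-85809877), Nat8 (chr6:85830387-85836857) and 1700019G17Rik (chr6:85899050-85909315) lie among them and Gm4477 (chr6:85706707-85708885) lies to one side, and all 8 are protein-coding genes on the minus strand. Nat8l is on another chromosome (chr5:33995984-34005916, plus strand).

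Cml3 has 2 nearly identical copies in this cluster, which bears on every read count given for it. Its coding sequence of 684 bases matched that of Gm4477 at 681 of 684 aligned bases (99.56%) and that of Gm11128 at 679 of 681 (99.71%). Counted from 1 at the A of the start codon, the substitutions from Cml3 to Gm4477 were G32A, C304A and C394T, and those from Cml3 to Gm11128 were G32A and C93T. The stretch around G32A is shown because it holds the base that separates Cml3 from both copies. The lines give coding bases 2 to 61 of the 4 genes, 5′ to 3′ on the minus strand of GRCm38 (GENCODE gene models), at chr6:85761718-85761777, chr6:85707796-85707855, chr6:85809105-85809164 and chr6:85817916-85817975, with capitals at the G of Cml3 and at each base that differs from Cml3.

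Cml3: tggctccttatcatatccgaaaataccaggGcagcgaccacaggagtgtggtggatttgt

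Gm4477: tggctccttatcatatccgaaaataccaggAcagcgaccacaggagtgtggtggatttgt

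Gm11128: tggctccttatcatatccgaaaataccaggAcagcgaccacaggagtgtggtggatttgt

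Cml5: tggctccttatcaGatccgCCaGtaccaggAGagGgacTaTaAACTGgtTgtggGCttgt

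Each copy differed from Cml3 at 1 of these 60 bases, whereas Cml5 differed at 17. Over the whole coding sequence Cml3 was 74.51% identical to Cml1, 71.3% to Cml2, 70.13% to Nat8, 68.14% to Cml5 and 61.11% to Nat8l. The closest pairs after the Cml3 trio were Cml2 and 1700019G17Rik (88.99%) and Cml1 and Nat8 (84.01%).

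The sequence before an annotated start of Cml3 has a different close match. That start lies inside the gene span given above, so the last bases shown for Cml3 belong to the gene. In RefSeq promoters (GRCm38.p6, 250 bases before to 50 after a start), Cml3 and one of the 2 starts of Nat8 shared an aligned stretch of 206 bases with 203 identical (98.54%). The 250 bases before each of these starts, chr6:85765745-85765994 for Cml3 and chr6:85836858-85837107 for Nat8, are shown 5′ to 3′ on the minus strand, with the shared stretch in capitals.

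Cml3: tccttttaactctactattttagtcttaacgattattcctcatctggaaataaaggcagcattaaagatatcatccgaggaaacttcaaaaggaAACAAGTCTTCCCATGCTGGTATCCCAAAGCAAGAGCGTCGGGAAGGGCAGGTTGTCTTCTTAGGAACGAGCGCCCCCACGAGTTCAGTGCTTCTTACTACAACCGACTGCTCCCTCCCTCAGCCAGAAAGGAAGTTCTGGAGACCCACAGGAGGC

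Nat8: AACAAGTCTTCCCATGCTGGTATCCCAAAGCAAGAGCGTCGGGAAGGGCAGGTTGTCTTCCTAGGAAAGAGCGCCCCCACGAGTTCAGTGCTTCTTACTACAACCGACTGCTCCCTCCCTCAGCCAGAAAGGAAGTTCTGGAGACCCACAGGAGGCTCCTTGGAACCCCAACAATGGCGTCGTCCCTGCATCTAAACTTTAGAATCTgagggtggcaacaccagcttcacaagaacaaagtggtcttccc

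The promoters of Gm4477 and Gm11128 likewise matched each other, at 286 of 292 bases (97.95%), but the longest stretch aligned between Cml3 and Gm11128 was 9 bases. The 250 bases taken for Gm4477 (chr6:85708562-85708811) lie wholly inside its gene span, so sequence upstream of that span was not compared. Cml3 thus shares its coding sequence with Gm4477 and Gm11128, and the sequence before its annotated start with Nat8 rather than Gm11128. Within the 250 upstream bases Cml3 held 8 CpG dinucleotides, Nat8 7, Cml2 4, Cml5 3 and Cml1 21, against a median of 6 over 32851 promoters. The Cml1 count was above that of 83.7% of all promoters.

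Reads of 50 bases were used, so every 50-base window of the GENCODE transcripts was compared between genes. Of the 1772 windows of Cml3, 1509 (85.2%) occurred without a mismatch in another gene, 1409 of them in Gm4477 and 589 in Gm11128. Allowing 3 mismatches, 98.6% of the Cml3 windows had a match in Gm4477. The 263 windows that distinguish Cml3 fell in 5 runs along its transcript of 1821 bases, and 1 of these runs touched the coding sequence. The other members were far more distinct. Cml1 shared 20.9% of its windows without a mismatch, all of them present in the pseudogene Nat8b-ps, Cml2 shared 17.9% (with 1700019G17Rik), and Cml5 and Nat8l shared none. How reads that fit several genes were handled is not stated in the sources used here, and the gene models used for counting were UCSC models rather than these.

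The count table nevertheless gave the copies very different numbers of reads. Summed over the 12 libraries, Cml3 had 2021 reads, Gm11128 had 126 and Gm4477 had 8, although Gm4477 has 314 distinguishing windows, more than Cml3. Gm4477 thus fell under the minimum of 15 reads, and among the members the fewest reads, 118, were those of Cml2. Per 1000 distinguishing windows, the level of Cml3 was 9.03 ± 1.67 in the 6 WT libraries and 17.1 ± 2.91 in the 6 Fmr1-/y libraries (mean ± SD), in CPM, the reads scaled to a common library size with edgeR's TMM method. For Gm4477 the same measure was 0.0269 ± 0.0659 and 0.0649 ± 0.107 CPM, and for Gm11128 it was 0.548 ± 0.306 and 1.19 ± 0.672 CPM. This measure is an upper bound where reads common to several genes were counted.

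**Figure D1:**
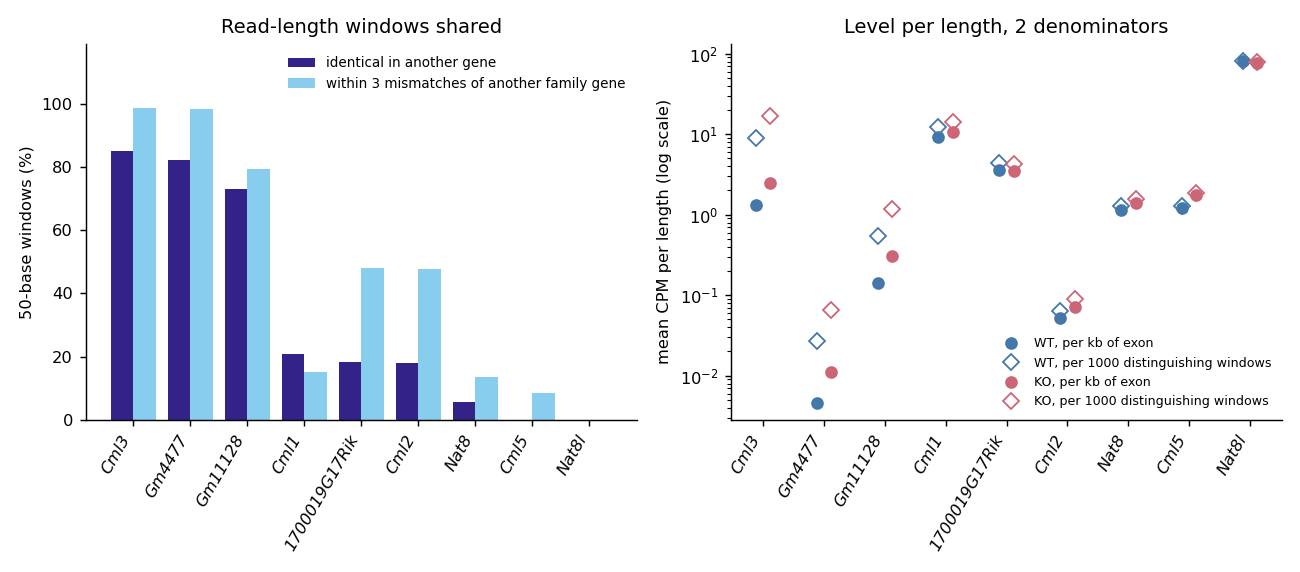
Left, share (%) of 50-base transcript windows of each family gene that are identical in any other gene (dark bars) or within 3 mismatches of another family gene of the count table (light bars; pseudogenes are in the first comparison but not in the second). Right, mean level over 6 libraries per genotype (log scale), as CPM per kb of exon (filled circles) and CPM per 1000 windows that distinguish the gene (open diamonds). Cml3 shares 85.2% of its windows and Cml5 none, and the 2 scales differ most for Cml3, Gm4477 and Gm11128.

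Counted reads ranged from 39400980 to 55745464 per WT library and from 43106629 to 65565479 per Fmr1-/y library. Fmr1 had 1971 to 2608 reads in WT libraries, 0 in 5 Fmr1-/y libraries and 1 in the other. Over all genes the median log2 fold change was 0.00, and it moved by less than 0.03 with the scaling. Nothing in the labels names which libraries shared a sequencing lane, so no batch could be compared. For the labelled cell type, 8 CA1 pyramidal markers (Wfs1, Camk2a and others) summed to 8182 to 10497 CPM per library. Most of that sum was Camk2a, with means of 6207 CPM in WT and 5826 CPM in Fmr1-/y libraries. The 12 libraries hold no input fraction, so enrichment of the cell type was not tested. Other cell types were also present: markers of choroid plexus and ependyma (Ttr and others) summed to 6463 to 17688 CPM, and no marker of any of the 8 lists was at 0 in all libraries.

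Cml3 mRNA was higher in every Fmr1-/y library than in every WT library. In WT replicates 1 to 6 its level was 2.29, 2.66, 2.41, 2.12, 1.75 and 3.02 CPM. In Fmr1-/y replicates 1 to 6 it was 5.09, 3.03, 4.69, 5.07, 4.70 and 4.35 CPM. The groups did not overlap, but only just, because Fmr1-/y replicate 2 lay at the upper end of WT and the other 5 Fmr1-/y libraries lay well above it. The underlying reads were 69 to 123 per WT library and 153 to 307 per Fmr1-/y library. The means were 2.38 ± 0.440 and 4.49 ± 0.765 CPM (SD, n = 6 each), a log2 fold change of 0.92 (SE 0.16). Neither the fold change nor its SE takes account of the choice of Cml3 from this contrast. Of all genes tested, 38 (0.213%) had every Fmr1-/y library above every WT library. Since this contrast chose Cml3, nothing is read from that share. In a bulk sample, a change in the number of contributing cells and a change in RNA per cell cannot be told apart.

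The call rule for the remaining genes was a Benjamini-Hochberg adjusted p over all genes below 0.05, computed with the quasi-likelihood test of edgeR, which 4 of 17823 genes passed (0.0224%), all of them lower in Fmr1-/y. DESeq2 on the same counts called 84 (0.471%). An unadjusted p under 0.05 in edgeR was reached by 1418 genes (7.96%). None of Cml1, Cml2, Cml5 and Nat8l passed any of these 3 rules, although DESeq2's own filter gave Cml2 no adjusted p. Limma voom called none of the 4 either.

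Cml5 had the fold change next in size to that of Cml3 among the members. Its level was 0.967, 1.39, 0.831, 1.43, 0.786 and 1.85 CPM in WT replicates 1 to 6. It was 1.97, 1.84, 2.41, 1.40, 1.78 and 1.05 CPM in Fmr1-/y replicates 1 to 6. The groups overlapped, with WT replicate 6 above all but 2 Fmr1-/y libraries. The means were 1.21 ± 0.417 and 1.74 ± 0.471 CPM (SD, n = 6 each), the log2 fold change was 0.53 (SE 0.25, 95% interval -0.0046 to 1.07), and edgeR's adjusted p was 0.633 (unadjusted p from the same fit 0.0518).

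Cml1 had the highest level in CPM of the members that lie in the cluster. Its level was 11.2, 8.29, 7.72, 10.9, 9.33 and 8.69 CPM in WT replicates 1 to 6. It was 13.5, 11.97, 9.50, 11.0, 9.65 and 9.69 CPM in Fmr1-/y replicates 1 to 6. The ranges overlapped, and the 2 highest libraries were Fmr1-/y replicates 1 and 2. The means were 9.36 ± 1.43 and 10.9 ± 1.60 CPM (SD, n = 6 each), with a log2 fold change of 0.22 (SE 0.12, 95% interval -0.04 to 0.47) and an edgeR adjusted p of 0.707.

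Cml2 was close to the limit of detection. WT replicates 1 to 6 had 12, 11, 2, 7, 12 and 1 reads, and Fmr1-/y replicates 1 to 6 had 46, 4, 10, 1, 0 and 12. Fmr1-/y replicate 1 alone stood above the rest, at 0.849 CPM against 0 to 0.258 CPM in the other 5 Fmr1-/y libraries. The log2 fold change of 0.48 (SE 0.88, 95% interval -1.38 to 2.33, edgeR adjusted p = 0.946) turned to -0.57 without that library. No direction can be given for Cml2 at this depth.

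Nat8l, the N-acetylaspartate synthase gene, had by far the most reads of the members, 19953 to 30277 per library. Its level was 517, 565, 549, 492, 525 and 504 CPM in WT replicates 1 to 6. It was 434, 523, 570, 479, 464 and 564 CPM in Fmr1-/y replicates 1 to 6. The Fmr1-/y libraries spread over a wider range that held the whole WT range. The means were 525 ± 27.7 and 506 ± 55.4 CPM (SD, n = 6 each), and the log2 fold change was -0.05 (SE 0.07, 95% interval -0.20 to 0.09, edgeR adjusted p = 0.921).

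**Figure D2:**
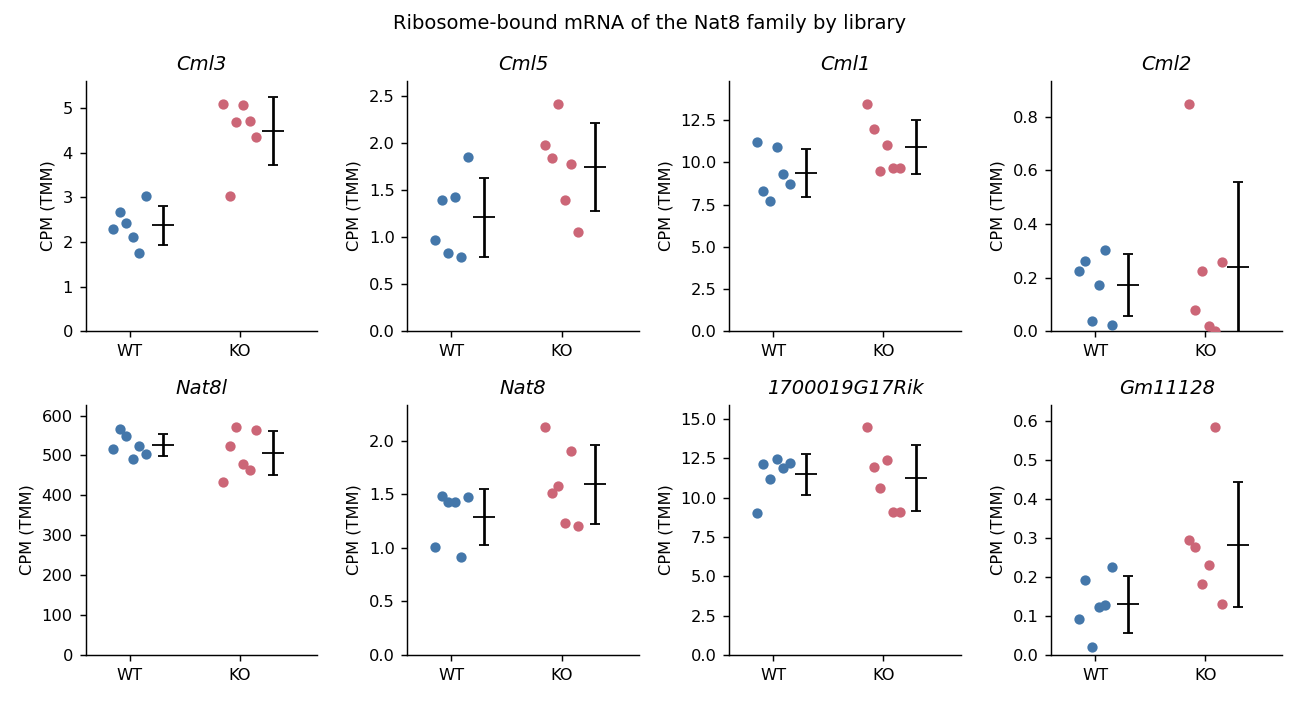
Level (CPM, TMM-normalized, linear axes from 0) of the 5 members and 3 further family genes in the 6 WT (blue) and 6 Fmr1-/y (red, KO) libraries, with black bars for the mean ± SD (the lower bar of Cml2 is cut at 0). Cml3 is the gene without overlap between the groups, with Fmr1-/y replicate 2 at 3.03 CPM just above the highest WT library at 3.02 CPM.

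The 3 other family genes with enough reads gave mixed values. Nat8 went from 1.29 ± 0.258 CPM in WT to 1.59 ± 0.364 CPM in Fmr1-/y libraries (log2 fold change 0.31, SE 0.21, edgeR adjusted p = 0.797). Gm11128, the sparse near-copy of Cml3, had 1 to 9 reads per WT library and 6 to 38 per Fmr1-/y library (log2 fold change 1.13, SE 0.58, 95% interval -0.09 to 2.36, edgeR adjusted p = 0.664). Its highest library was Fmr1-/y replicate 5, the deepest library, in which Cml3 (4.70 CPM) was lower than in Fmr1-/y replicates 1 and 4. 1700019G17Rik, at 11.5 ± 1.28 and 11.3 ± 2.09 CPM, had a log2 fold change of -0.03 (SE 0.12, edgeR adjusted p = 0.985), and its sign turned with the scaling.

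Levels between genes can be set side by side only per length. Per kb of exon (RPKM, CPM divided by exon length in kb), WT libraries ranged from 75.3 to 86.6 for Nat8l, 7.56 to 11.0 for Cml1, 2.80 to 3.86 for 1700019G17Rik, 0.960 to 1.66 for Cml3, 0.797 to 1.87 for Cml5 and 0.812 to 1.32 for Nat8. Gm11128 reached 0.243, Cml2 0.0921 and Gm4477 0.0278 at most. Neighbours in this order did not overlap from Nat8l down to Cml3, nor between Nat8 and Gm11128. Cml3, Cml5 and Nat8 overlapped, as did Gm11128, Cml2 and Gm4477. With the distinguishing windows as the length, the WT mean of Cml3 (9.03 ± 1.67) came next to that of Cml1 (12.2 ± 1.86), so the place of Cml3 in the order depends on how its common sequence is treated.

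Cml3 also took a larger part of the reads of its own cluster. It held 6.95% to 11.0% of the reads of the 8 cluster genes in WT libraries (median 9.64%) and 9.86% to 16.99% in Fmr1-/y libraries (median 16.1%). Fmr1-/y replicate 2, at 9.86%, lay inside the WT range and the other 5 Fmr1-/y libraries lay above it. The summed level of the cluster without Cml3 was 21.2 to 26.5 CPM in WT and 21.5 to 33.2 CPM in Fmr1-/y libraries, and the ranges overlapped. These shares come from the same contrast that chose Cml3 and are a description.

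The genes around the cluster were read from the same fit. Within 500 kb of Cml3, 34 other genes are annotated, 24 are in the table and 19 were tested, of which 0 were called by edgeR, DESeq2 or limma voom and 2 had an unadjusted p under 0.05 in edgeR. DESeq2 gave 3 of the 19 no adjusted p. Of the 19, 12 had a fold change above 0 and 7 below, where 51.4% of all genes tested were above 0. The median log2 fold change was 0.39 for the 6 other family genes (5 above 0) and 0.02 for the 13 genes of no family (7 above 0). Those 5 include Cml2, with 118 reads and no direction to be given, and Gm11128, the near-copy of Cml3, with 126. The gene that borders Cml3 on one side is Mir6375, which had 2 reads and was not tested, and on the other the pseudogene Alms1-ps1, not analysed here. Next after Mir6375, Alms1-ps2, a transcribed pseudogene, had a log2 fold change of 0.74 (SE 0.58) on 132 reads in all, and on the other side Alms1, a gene of cilium function whose span holds Gm4477, had 0.11 (SE 0.14). Tprkb, whose span overlaps that of Cml1, had 0.04 (SE 0.07). The 2 neighbours with an unadjusted p under 0.05 were Sfxn5, a gene of a mitochondrial carrier family (log2 fold change 0.23, SE 0.08, edgeR adjusted p = 0.460), and Smyd5, a gene of the SET and MYND domain family (-0.19, SE 0.07, edgeR adjusted p = 0.493), both over 300 kb from Cml3.

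**Figure D3:**
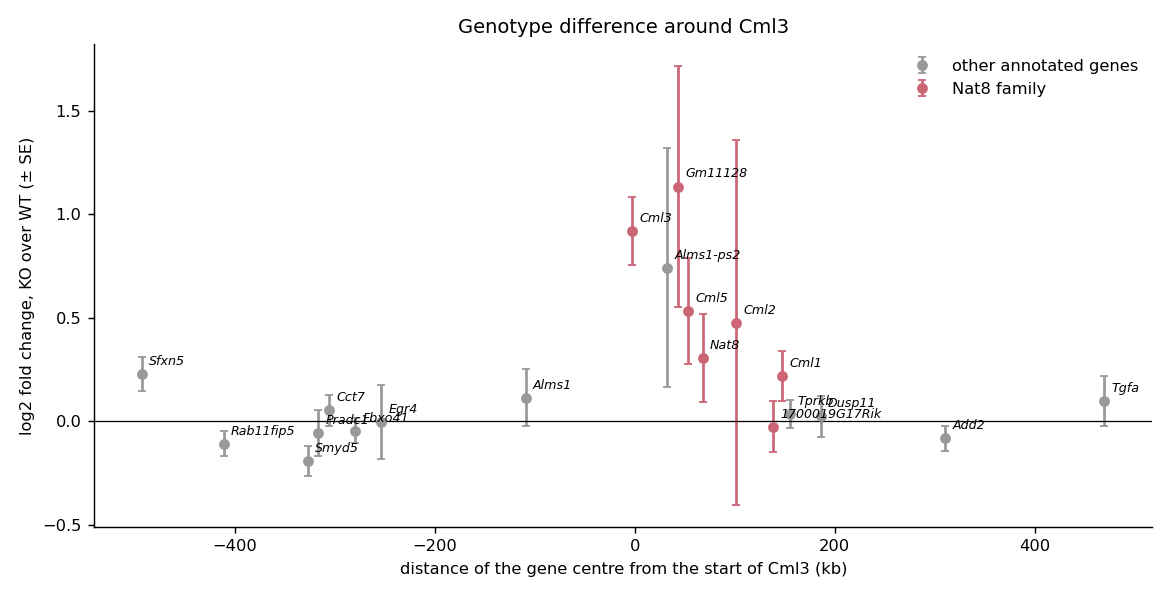
Log2 fold change of Fmr1-/y over WT (± SE of the edgeR fit) for Cml3 and the 19 tested genes within 500 kb, against the distance of the gene's centre from the start of Cml3 in kb (Nat8 family red, other genes grey). The genes outside the family with more than 132 reads lie between -0.19 (Smyd5) and 0.23 (Sfxn5), and the wide bars of Gm11128, Cml2 and Alms1-ps2 reflect 118 to 132 reads in all.

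Several markers of other cell types had higher means in Fmr1-/y libraries, and those values stand beside the members here. All 8 astrocyte markers, all 6 endothelial markers and all 8 choroid plexus and ependymal markers had a fold change above 0 in Fmr1-/y libraries, with median log2 fold changes of 0.22, 0.39 and 0.39, while all 8 CA1 markers were below 0 (median -0.10). EdgeR and limma voom called none of these and DESeq2 called 1, the astrocyte transporter Slc7a10, and an unadjusted p under 0.05 was reached by 5 of 8, 4 of 6, 4 of 8 and 2 of 8 respectively. Astrocyte markers summed to 681 to 842 CPM in WT and 784 to 1179 CPM in Fmr1-/y libraries. Endothelial markers summed to 38.2 to 54.1 CPM and 48.2 to 70.0 CPM, and choroid plexus and ependymal markers to 6463 to 11967 CPM and 8418 to 17688 CPM. The ranges overlapped in each of the 3 lists. Ttr alone had means of 8323 CPM in WT and 11319 CPM in Fmr1-/y libraries, so the choroid plexus and ependymal sum follows mostly Ttr. In that list the ependymal markers Foxj1 and Tmem212 had log2 fold changes of only 0.11 and 0.0024. Markers of GABAergic neurons, oligodendrocytes, microglia and the CA2, CA3 and dentate fields had medians from -0.09 to 0.01.

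The members were also set beside these sums within genotypes. Correlations here are Pearson's r of deviations from the genotype means of log2 CPM over the 12 libraries, which share library preparation and depth, and they are a description. For Cml3, r was 0.03 with the astrocyte sum, 0.00 with the endothelial sum and 0.24 with the choroid plexus sum. These values pool genotypes that differed. With the choroid plexus sum, r was 0.81 over the 6 Fmr1-/y libraries and -0.39 over the 6 WT libraries. Without the 2 libraries farthest from the genotype's median sum, it was 0.78 and -0.715. With the endothelial sum r was -0.06 in Fmr1-/y and 0.08 in WT libraries, and -0.796 and -0.615 without the 2 farthest. With the astrocyte sum r was -0.18 in Fmr1-/y and 0.49 in WT libraries, and both signs turned when the 2 farthest were left out (0.82 and -0.72). The 4 Fmr1-/y libraries with a choroid plexus sum inside the WT range had Cml3 levels of 3.03 to 4.70 CPM. Nothing is read from this, because in the contrast that chose Cml3 every Fmr1-/y library lay above every WT library. For Cml1, r was 0.78 with the astrocyte sum and 0.57 with the endothelial sum. Fmr1-/y replicate 2, with the lowest Cml3 level of its group, had the second highest astrocyte sum (1036 CPM) and the lowest choroid plexus sum (8418 CPM) of that group. For Nat8l, r was 0.50 with the CA1 sum, -0.59 with the astrocyte sum and -0.70 with the endothelial sum. The part of these cell types in the differences between genotypes was not tested.

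**Figure D4:**
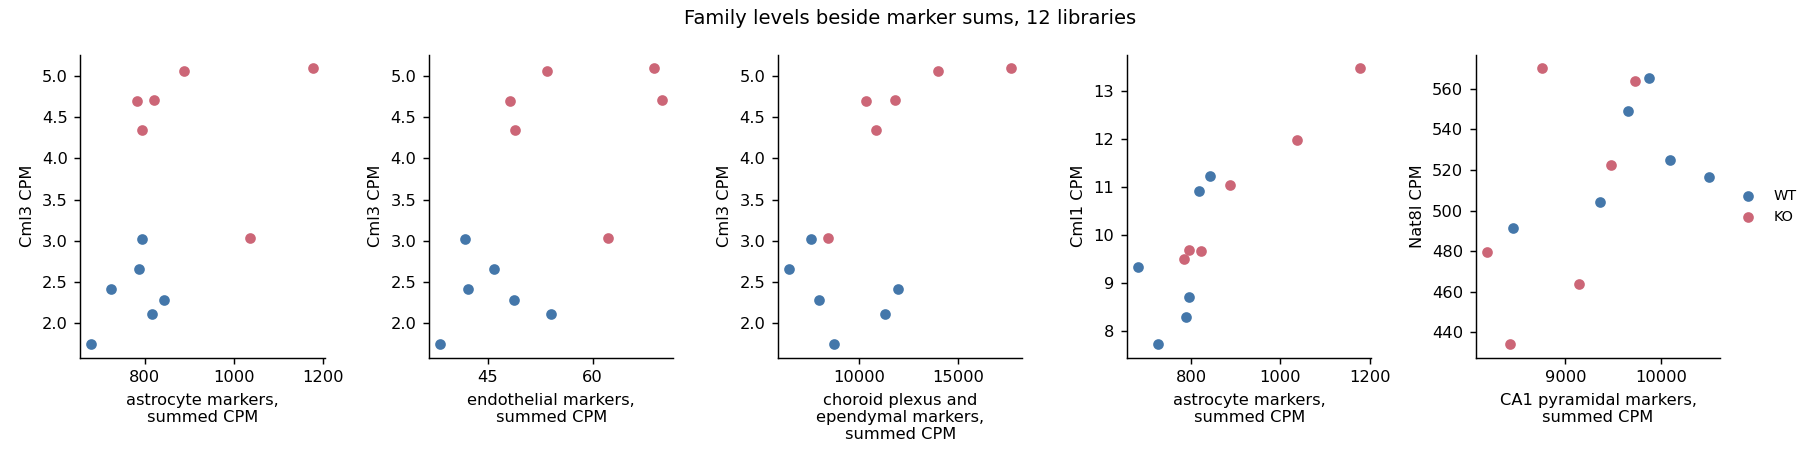
Level of Cml3, Cml1 or Nat8l (CPM, axes not from 0) against the summed CPM of astrocyte, endothelial, choroid plexus and ependymal, or CA1 pyramidal markers in the 6 WT (blue) and 6 Fmr1-/y (red, KO) libraries. Fmr1-/y libraries with astrocyte sums inside the WT range of 681 to 842 CPM had Cml3 levels of 4.35 to 4.70 CPM. Nothing is read from this, because all Fmr1-/y libraries lay above all WT libraries in the contrast that chose Cml3. Cml1 was higher where the astrocyte sum was higher (r = 0.78 within genotypes, n = 12).

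Among the family genes, the highest r within genotypes was that of Cml5 and Nat8 (0.68 over 12 libraries), while Cml3 had r of 0.45 with Nat8, 0.37 with Cml5 and -0.27 with Cml1. The lowest r was that of Nat8l and Cml1 (-0.61). Over 13766 genes with a mean of at least 1 CPM, those whose deviations were most like those of Cml3 were G0s2 (r = 0.87), Endou (0.85), 4930432K21Rik (0.82), Siglech (0.82) and Ints10 (0.82). For Nat8l they were Snph (0.96), Apbb3 (0.95), Fam134c (0.92), Wsb2 (0.92) and Scn8a (0.92). These are the top of a search over all those genes, and the genes named for Cml3 had log2 fold changes between genotypes from -0.15 to 0.31 with none called.

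In the metabolism of NAA and NAAG around Nat8l, 0 of 9 genes tested were called by edgeR, with 6 above 0, 3 below, a median log2 fold change of 0.03 and 1 at an unadjusted p under 0.05. Rimklb, one of the 2 NAAG synthetases, had 21.8 ± 2.23 CPM in WT and 19.1 ± 1.52 CPM in Fmr1-/y libraries (log2 fold change -0.19, SE 0.08, edgeR adjusted p = 0.608), the 1 gene just counted, and the other, Rimkla, had a log2 fold change of -0.12 (SE 0.20). Aspa, the aspartoacylase that splits NAA in oligodendrocytes, had 2.15 ± 0.541 and 2.13 ± 0.614 CPM, and Folh1, the peptidase that splits NAAG, had 2.93 ± 0.689 and 2.97 ± 0.657 CPM. Slc13a3, a transporter that carries NAA, had a log2 fold change of 0.30 (SE 0.17) and Grm3, the glutamate receptor at which NAAG acts, 0.23 (SE 0.13), both without a call.

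Of the 3 genes of lysine acetylation in the endoplasmic reticulum, edgeR called 0, and 0 had an unadjusted p under 0.05. DESeq2 and limma voom likewise called 0 in this list, in that of NAA and NAAG and in the 2 lists that follow, but DESeq2 gave no adjusted p to 1 gene of NAA and NAAG, 3 mercapturic acid genes and 5 other N-acetyltransferase genes (Esco2 among them). Slc33a1, the acetyl-CoA transporter of that membrane, went from 31.8 ± 1.89 CPM in WT to 35.3 ± 4.12 CPM in Fmr1-/y libraries (log2 fold change 0.15, SE 0.08, edgeR adjusted p = 0.687). Bace1 and Atg9a, which encode proteins known to be acetylated there, had log2 fold changes of -0.08 (SE 0.09) and -0.03 (SE 0.06).

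The mercapturic acid pathway list held glutathione transferases, gamma-glutamyl transferases, dipeptidases, aminopeptidases, acylases and cysteine conjugate beta-lyases around the NAT8 reaction. Of its 22 genes tested, 0 were called by edgeR, 19 were above 0 and 3 below, and the median log2 fold change was 0.20. Over all genes tested, 51.4% were above 0 and 7.96% had an unadjusted p under 0.05 in edgeR, as given above. The 3 with an unadjusted p under 0.05, all with higher means in Fmr1-/y, were Gstk1 (log2 fold change 0.44, SE 0.15), Anpep (0.32, SE 0.14) and Ccbl1 (0.27, SE 0.10), with edgeR adjusted p of 0.415, 0.595 and 0.508. Gstk1 encodes a glutathione transferase, Anpep an aminopeptidase of the cell surface and Ccbl1 a cysteine conjugate beta-lyase. The lowest fold changes were those of Gstm7 (-0.15, SE 0.13) and Gsto1 (-0.10, SE 0.10). The astrocyte, endothelial, and choroid plexus and ependymal markers given above also lay above 0, and their part in this list was not tested.

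Of 30 tested genes of other N-acetyltransferases, such as the catalytic subunits of protein N-terminal acetylation, 14 were above 0 and 16 below, with a median log2 fold change of 0.00, 0 called by edgeR and 1 at an unadjusted p under 0.05. The smallest p in each direction belonged to Esco2, the 1 gene just counted, a cohesin acetyltransferase gene present at 0 to 0.279 CPM (log2 fold change -2.55, SE 1.01, edgeR adjusted p = 0.515), and Nat6, at 16.8 ± 1.07 and 18.7 ± 1.45 CPM (0.16, SE 0.08, edgeR adjusted p = 0.633).

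**Figure D5:**
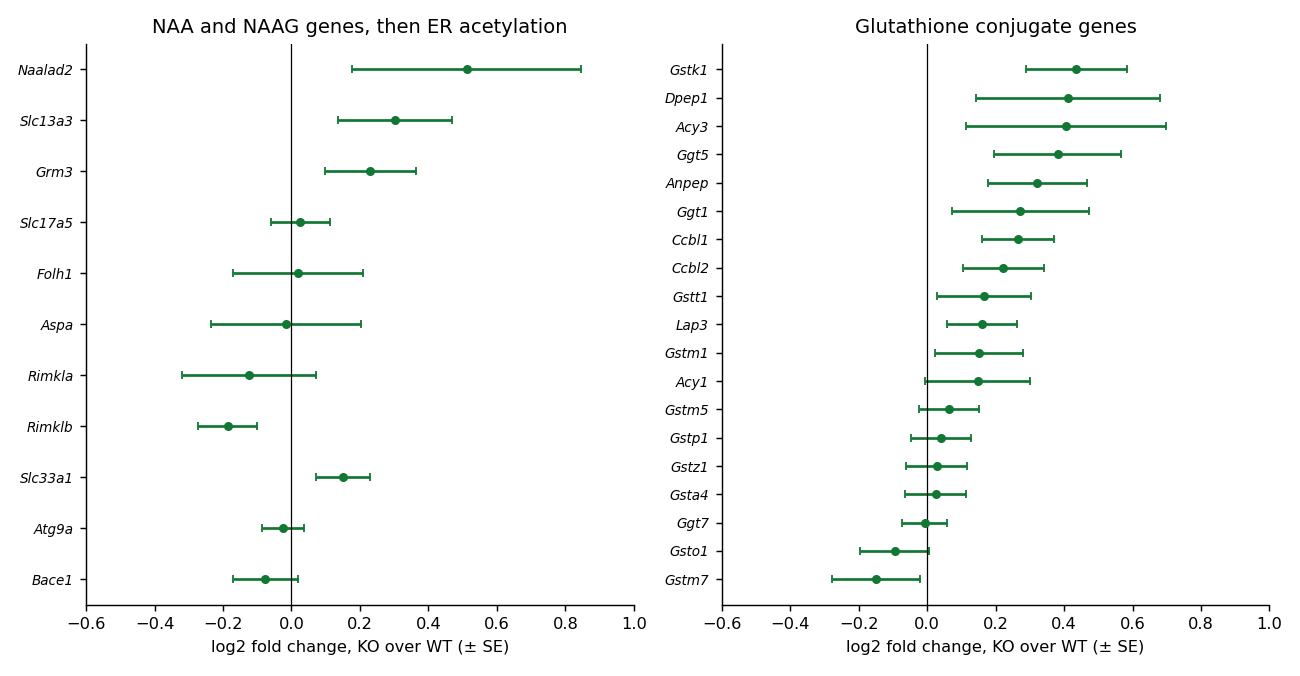
Log2 fold change of Fmr1-/y over WT (± SE of the edgeR fit) for the genes of NAA and NAAG metabolism and of lysine acetylation in the endoplasmic reticulum (left) and of the mercapturic acid pathway (right). Genes with a mean under 0.5 CPM are not drawn (1, 0 and 3 of the 3 lists), and the mercapturic acid genes lie mostly to the right of 0, up to 0.44 for Gstk1.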

How the data were processed

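Members, lists and tests were chosen with earlier results of these data known. Stranded libraries of polyadenylated RNA were sequenced as single reads of 50 bases. The authors aligned them with TopHat2 2.1.1 and Bowtie2 2.2.8 to mm10 with UCSC gene models, discarded alignments with more than 3 mismatches, counted reads on the opposite strand per gene with HTSeq 0.6.1p1 (union mode) and deposited these counts without normalization, after demultiplexing with bcl2fastq 2.17. Genes with at least 15 reads in total were kept, as in the study. Genotypes were compared on the counts with edgeR 4.0.16 (R 4.3.3; TMM, quasi-likelihood test, no covariate, Benjamini-Hochberg over all genes, threshold 0.05), where the standard error is the size of the log2 fold change divided by the square root of F. The test was checked on simulated counts. CPM values use TMM factors, SDs are over the 6 libraries of a genotype, and correlations used a prior count of 2. Alternatives were DESeq2 1.42.0, limma 3.58.1 voom, other scaling, other filters, the replicate number as a block and each library left out. Each library counts as 1 replicate, as the labels call them biological replicates, and no 2 libraries of a genotype agreed within sampling noise. Positions came from RefSeq by Entrez identifier (99.8% of genes tested) and exon lengths from GENCODE (93.2%). The genes named are the members, the other Nat8 family genes, the neighbours of members, in each list the 2 genes with the smallest p in each direction and the named enzymes, and the 5 genes most like Cml3 and Nat8l. Further genes of a list named in the text were chosen after their values were seen.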

Additional observations from a re-analysis of the deposited data

Results flagged for a closer look

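In 4 of 16 groups of 6 libraries (8 family genes in 2 genotypes) an extreme library was separated from the rest by more than Dixon's 95% critical value allows, as a share of the group's range, where chance gives about 1 in 20 groups, or 0.8 of 16. Cml3 in Fmr1-/y replicate 2 was 3.03 CPM against 4.35 to 5.09 CPM in the other 5 (0.639 of the range). Gm11128 in Fmr1-/y replicate 5 was 0.582 CPM against 0.129 to 0.295 CPM (0.634). Cml2 in Fmr1-/y replicate 1 was 0.849 CPM against 0 to 0.258 CPM (0.696). 1700019G17Rik in WT replicate 1 was 9.02 CPM against 11.2 to 12.4 CPM in the other 5 WT libraries (0.633).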

How the results depend on the processing

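Over 19 alternatives, the log2 fold change of Cml3 stayed between 0.85 and 1.01 (lowest without WT replicate 5, highest without Fmr1-/y replicate 2). That range is a description, because this contrast chose Cml3. Its groups did not overlap, so leaving out 1 library could not turn its direction. The log2 fold change of Cml1 stayed between 0.15 and 0.28, that of Cml5 between 0.42 and 0.69 and that of Nat8l between -0.09 and -0.01, without a change of direction. Adjusted p ranged from 0.547 to 0.946 for Cml1, 0.440 to 0.915 for Cml5 and 0.718 to 0.999 for Nat8l. Cml2 turned to -0.52 in limma voom and to -0.072 with the replicate block, and ranged from -0.57 (without Fmr1-/y replicate 1) to 0.75 when libraries were left out. 1700019G17Rik turned to 0.0013 without scaling beyond library size and ranged from -0.11 to 0.031 when libraries were left out. Of all genes, DESeq2 called 84 (53 lower, 31 higher) against 4 in edgeR (4 lower, 0 higher). Leaving out 1 library gave 2 to 6 genes (2 to 5 lower, 0 to 1 higher), with 2 without Fmr1-/y replicate 1, 4, 5 or 6 or WT replicate 4, 5 or 6, and an adjusted p under 0.1 gave 1 higher gene. The cause of these changes was not tested. Same-numbered libraries did not deviate together in every pair (r from -0.08 to 0.09 over all genes tested, and from -0.44 to 0.60 over the 5987 genes with a mean log2 CPM of at least 5, where pairs 1, 3 and 4 were above 0.3, pair 2 was negative and pairs 5 and 6 were near 0), so the numbers were not taken to pair them, and the replicate block changed no other direction or call of the members. At 1 to 12 reads per WT library, Cml2 allows no estimate of a difference, and for Cml3, Gm11128 and Gm4477 the common sequence limits how reads can be assigned.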
